A study of Mus musculus with 6 samples.

Results

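The genes described here keep the genome intact while a cell copies its DNA: 39 genes of homologous recombination, the Fanconi anaemia pathway, end joining, single-strand break repair, mismatch repair and the replication checkpoint. They were chosen by gene symbol, from a list set for their roles and not for their values here, though with earlier results of these data known. All 39 were among the 23366 gene symbols of the count table and among the 11716 genes with enough counts to be tested. The RNA came from Treg cells (regulatory T cells, gated as CD4+GFP+ on a flow cytometer) of Foxp3GFP knock-in mice aged 12 days, with 3 libraries from liver and 3 from spleen. Every library therefore carries the same knock-in reporter, in which GFP reports Foxp3, the lineage factor of Treg cells, and the tissue is the only labelled difference. The labels do not give strain or sex and do not say whether a library came from 1 animal or a pool, and the p-values below reflect the spread among these 6 libraries alone, which may be technical.

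Homologous recombination copies the intact sister chromatid to mend a broken or stalled replication fork, and BRCA1 with its partner BARD1, then PALB2 and BRCA2, bring it about. The Fanconi anaemia pathway frees forks that meet crosslinked DNA strands, through a core complex that ubiquitylates the FANCD2-FANCI pair. These systems act mainly in S and G2 phase, whereas end joining, PARP-dependent single-strand break repair and the ATM kinase also serve cells that are not dividing.

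Liver libraries held more transcript of Brca1 and Bard1, of 3 other homologous recombination genes, of 4 of the 8 Fanconi genes and of Clspn, the gene of the fork adaptor Claspin. No gene passed among those of end joining, single-strand break repair, Msh6 and Rad18, or Atm and Atr. Genes of homologous recombination, end resection and the fork also failed to pass, among them Brca2, Palb2, Blm, Exo1, Chek1, Timeless and Tipin. Nbn was lower in liver. Of the 39 genes, 10 (25.6%) had higher levels in liver, 1 (2.56%) had a lower level and 28 failed to pass, by edgeR's quasi-likelihood test at an adjusted p of 0.05. Over all genes tested the shares were 9.28% higher in liver and 6.90% lower, or 16.2% in either direction against 28.2% of the 39. The median log2 fold change, liver minus spleen, was 0.16 for the 39 genes and -0.01 for all genes tested. Liver and spleen libraries were fully separated for 14 of the 39 genes (35.9%), close to the 32.9% of all genes tested. Of the 11 calls, 9 lay among the 19 homologous recombination and Fanconi genes (47.4% of these), all higher in liver. The other 20 genes held 1 higher and 1 lower. Roles were assigned and these 2 groups joined with earlier results of these data known, so the contrast is a description and not a test. Libraries were also thinned to the depth of the shallowest, called equal depth below, in 1 random draw. The draw was not repeated, so values of single genes may differ in another draw. In it, 5 of the 31 genes still testable were higher in liver and 1 lower. Of the 9141 genes tested in that fit 6.86% were higher and 4.62% lower.

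**Figure D1:**
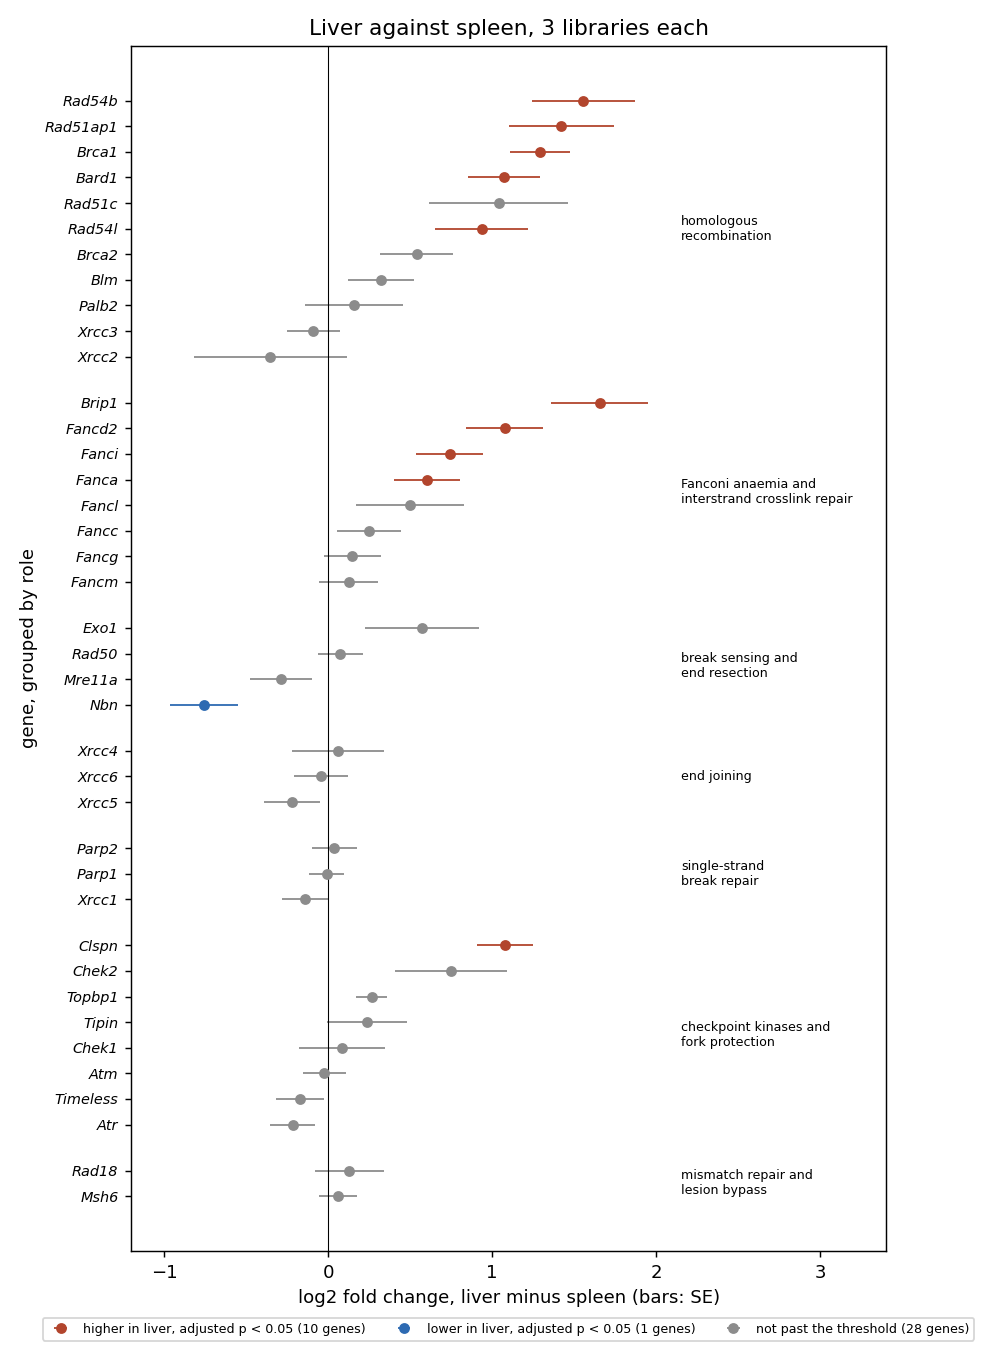
Log2 fold change, liver minus spleen, with its standard error for each of the 39 genes, grouped by role. The 10 genes higher in liver sit in the homologous recombination and Fanconi groups apart from Clspn, and Nbn is the 1 gene lower in liver.

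Depth and purity of the libraries bear on these values. Counts in genes were between 8437055 and 11408960 in 5 libraries and 1199410 in spleen 1, where a floor of 3 counts was 2.58 CPM against 0.256 to 0.361 CPM elsewhere. CPM, counts per mega-count, is a gene's count scaled to its library's total after TMM adjustment. Of 7 Treg markers, 2 were higher in liver and 1 lower, and their sum ran from 4391 to 4709 CPM in liver and 3873 to 4344 CPM in spleen. Foxp3 stood at 1266 ± 58.4 CPM in the liver libraries against 1160 ± 57.6 CPM in the spleen libraries (SD, n = 3), and Ikzf2 at 822 against 642 CPM. Transcripts listed as markers of other cell types differed between the tissues. Summed over each list, erythroid markers ran from 143 to 170 CPM in liver and 411 to 479 CPM in spleen, with 10 of 12 lower in liver; averaged over all 6 libraries, Tfrc and the globin Beta-s were the most abundant (Beta-s with a liver mean of 5.97 CPM and a spleen mean of 89.6 CPM), and Hba-a1, Hba-a2, Hbb-b1 and Hbb-b2 were at 0 throughout. The most abundant genes of the lists that follow are also named by their mean over all 6 libraries, and their order can differ within a tissue. Granulocyte markers, with Ngp and Ltf the most abundant, ran from 292 to 321 and from 508 to 876 CPM, with 11 of 14 lower in liver. For macrophage markers, with Lyz2 and Cd68 the most abundant, the ranges were 75.5 to 84.6 and 138 to 213 CPM, with 8 of 10 lower. B cell markers, with Cd79a and Cd79b the most abundant, ran from 155 to 194 and from 234 to 332 CPM, with 4 of 12 lower. NK and CD8 T cell markers, with Ccl5 and Nkg7 the most abundant, ran the other way, from 184 to 229 CPM in liver and 62.9 to 70.6 CPM in spleen, with 6 of 11 higher in liver, Eomes lower and Klra8 at 0. Hepatocyte markers summed to 15.7 to 26.3 CPM in liver and 18.2 to 25.0 CPM in spleen; 2 of 4 tested were higher in liver and 1 lower, with Trf the most abundant followed by Alb, and Alb, Ttr, Serpina1a, Fgb and Ahsg at 0 in spleen. With the marker genes of other cell types, but not those of Treg cells, removed before scaling, the counts were again 10 higher and 1 lower. Repair transcripts of other cells stay in such a fit, so it does not bear on purity. The share of the repair transcripts that other cells contributed was not tested. In sorted bulk samples, fewer cells of a type and less RNA per cell cannot be told apart.

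Sequence upstream of the start site is shown for the 3 called genes with the smallest p, Brca1, Clspn and Brip1, and for Topbp1, the gene with the highest mean CPM among those that did not pass. The sequences come from RefSeq on GRCm38.p6, a later build than the mm9 of the counts, run 5′ to 3′ on the gene's strand, and are trimmed where an exon of a coding transcript is annotated. Capitals mark a CCAAT box (CCAAT, or ATTGG on the other strand), an element of many cell cycle promoters, or an E2F site.

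Brca1 (chr11:101551956-101552148, minus strand): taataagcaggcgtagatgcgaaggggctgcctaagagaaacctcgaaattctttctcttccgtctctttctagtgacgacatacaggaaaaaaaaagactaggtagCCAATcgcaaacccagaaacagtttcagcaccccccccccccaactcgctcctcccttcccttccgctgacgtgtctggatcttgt

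Clspn (chr4:126556730-126556934, plus strand): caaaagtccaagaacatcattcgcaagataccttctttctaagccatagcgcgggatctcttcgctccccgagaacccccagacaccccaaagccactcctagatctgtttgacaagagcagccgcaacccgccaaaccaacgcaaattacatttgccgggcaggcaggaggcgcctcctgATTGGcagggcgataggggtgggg

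Brip1 (chr11:86201194-86201443, minus strand): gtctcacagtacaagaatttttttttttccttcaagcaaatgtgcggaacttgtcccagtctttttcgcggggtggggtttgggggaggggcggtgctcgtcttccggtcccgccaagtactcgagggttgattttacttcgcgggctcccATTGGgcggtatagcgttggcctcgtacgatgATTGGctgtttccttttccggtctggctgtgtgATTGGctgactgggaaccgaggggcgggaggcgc

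Topbp1 (chr9:103305077-103305214, plus strand): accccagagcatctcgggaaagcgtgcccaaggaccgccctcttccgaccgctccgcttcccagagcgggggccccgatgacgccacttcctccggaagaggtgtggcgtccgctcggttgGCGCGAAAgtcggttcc

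Brip1 carried 3 CCAAT boxes within 99 bases of its start, and Brca1 carried 1. Clspn had 2, of which the printed stretch holds 1, and an E2F site 22 bases past its start, outside the printed stretch. Windows of 300 bases, from 250 before to 50 after the start, were found for 32 of the 39 genes and searched on both strands. A gene counted as matched if any of its windows held a match, whereas the shares over all windows count single windows. Gene counts and window shares are therefore not on the same footing. An E2F site (TTTCCCGC, TTTCGCGC, TTTGCCGC or TTTGGCGC) was in the windows of 9 of these 32 genes and in 2.26% of the 32851 windows of all genes. It was in 2 of 8 genes higher in liver, Bard1 and Clspn, and in 7 of 24 that did not pass: Brca2, Chek2, Fancg, Msh6, Rad51c, Topbp1 and Xrcc6. A CCAAT box was in 6 of the 8 and 12 of the 24, and in 37.4% of all windows. A CHR element (TTTGAA or TTCGAA), typical of genes of G2 phase and mitosis, was in 2 of the 32, Bard1 and Atr, and in 19.2% of all windows. A match is a description of letters and not of binding.

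Transcripts of both subunits of the BRCA1-BARD1 ubiquitin ligase, which starts homologous recombination, were higher in liver. Brca1 was at 33.3, 30.4 and 35.7 CPM in the liver libraries and 16.4, 11.9 and 14.3 CPM in the spleen libraries. The tissues did not overlap, and the ratio was 2.45-fold (log2 fold change 1.29 ± 0.18 SE, edgeR adjusted p = 7.50e-05). Bard1 was at 29.9, 19.1 and 30.4 CPM in liver against 12.0, 13.8 and 11.5 CPM in spleen. Liver 2 was the lowest of the liver libraries but above every spleen library (2.1-fold; log2 fold change 1.07 ± 0.22 SE, edgeR adjusted p = 0.00213). Both genes were past the threshold under all 15 alternatives tried.

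The genes of the scaffold PALB2 and the recombinase loader BRCA2, proteins that act next, did not pass. Brca2 was at 21.3, 21.6 and 19.9 CPM in liver and at 8.61, 18.3 and 12.6 CPM in spleen, where spleen 1 was lowest. The tissues did not overlap, yet the spread among spleen libraries was wide (log2 fold change 0.54 ± 0.22 SE, edgeR adjusted p = 0.114). Without spleen 2, the highest of them, Brca2 passed (0.86, edgeR adjusted p = 0.0407). Palb2 had a log2 fold change of 0.16, with a 95% interval from -0.47 to 0.79.

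The other 3 of the 5 called homologous recombination genes (of 11) were Rad54b, Rad51ap1 and Rad54l. Rad54b and Rad54l encode DNA translocases of the Swi2/Snf2 family, and Rad51ap1 a factor that helps the invading strand pair. Rad54b was at 12.6, 11.6 and 8.89 CPM in liver against 1.72, 3.68 and 4.27 CPM in spleen, without overlap. Its ratio of 2.94-fold was the largest of the homologous recombination genes (log2 fold change 1.56 ± 0.31 SE, edgeR adjusted p = 0.00188); spleen 1 held 2 counts, and Rad54b shares exon bases with Fsbp on the same strand, so its counts are uncertain. Rad51ap1 was at 9.98, 12.5 and 16.3 CPM in liver against 5.16, 3.17 and 6.41 CPM in spleen, again apart. The ratio was 2.68-fold (log2 fold change 1.42 ± 0.32 SE, edgeR adjusted p = 0.00449), and without spleen 2 the edgeR adjusted p was 0.0515. Rad54l was at 11.7, 12.4 and 18 CPM in liver against 11.2, 5.66 and 7.86 CPM in spleen. Liver 1 and spleen 1 lay side by side without crossing (log2 fold change 0.93 ± 0.28 SE, edgeR adjusted p = 0.0313). The Rad54l call was lost without liver 2, liver 3, spleen 2 or spleen 3 (edgeR adjusted p = 0.0562, 0.158, 0.227 and 0.0690) and at equal depth (log2 fold change 0.31, edgeR adjusted p = 0.730).

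Genes of the paralogue complexes and of the BLM helicase, which stabilise and later dissolve the joined strands, did not pass. Rad51c had no overlap between tissues at a low level, 3.49 to 4.91 CPM in liver and 1.72 to 2.14 CPM in the spleen (log2 fold change 1.04 ± 0.43 SE, edgeR adjusted p = 0.114). Xrcc3 ranged from 29.8 to 41.5 CPM over the libraries of both tissues, with a log2 fold change of -0.09 and a 95% interval from -0.44 to 0.26. Xrcc2 was highest in spleen 1, at 15.5 CPM against 3.39 to 8.90 CPM elsewhere; without spleen 1 its log2 fold change was 0.05 in place of -0.35. Blm had a log2 fold change of 0.32 with an interval from -0.10 to 0.75, and passed with limma-voom (limma adjusted p = 0.0348).

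**Figure D2:**
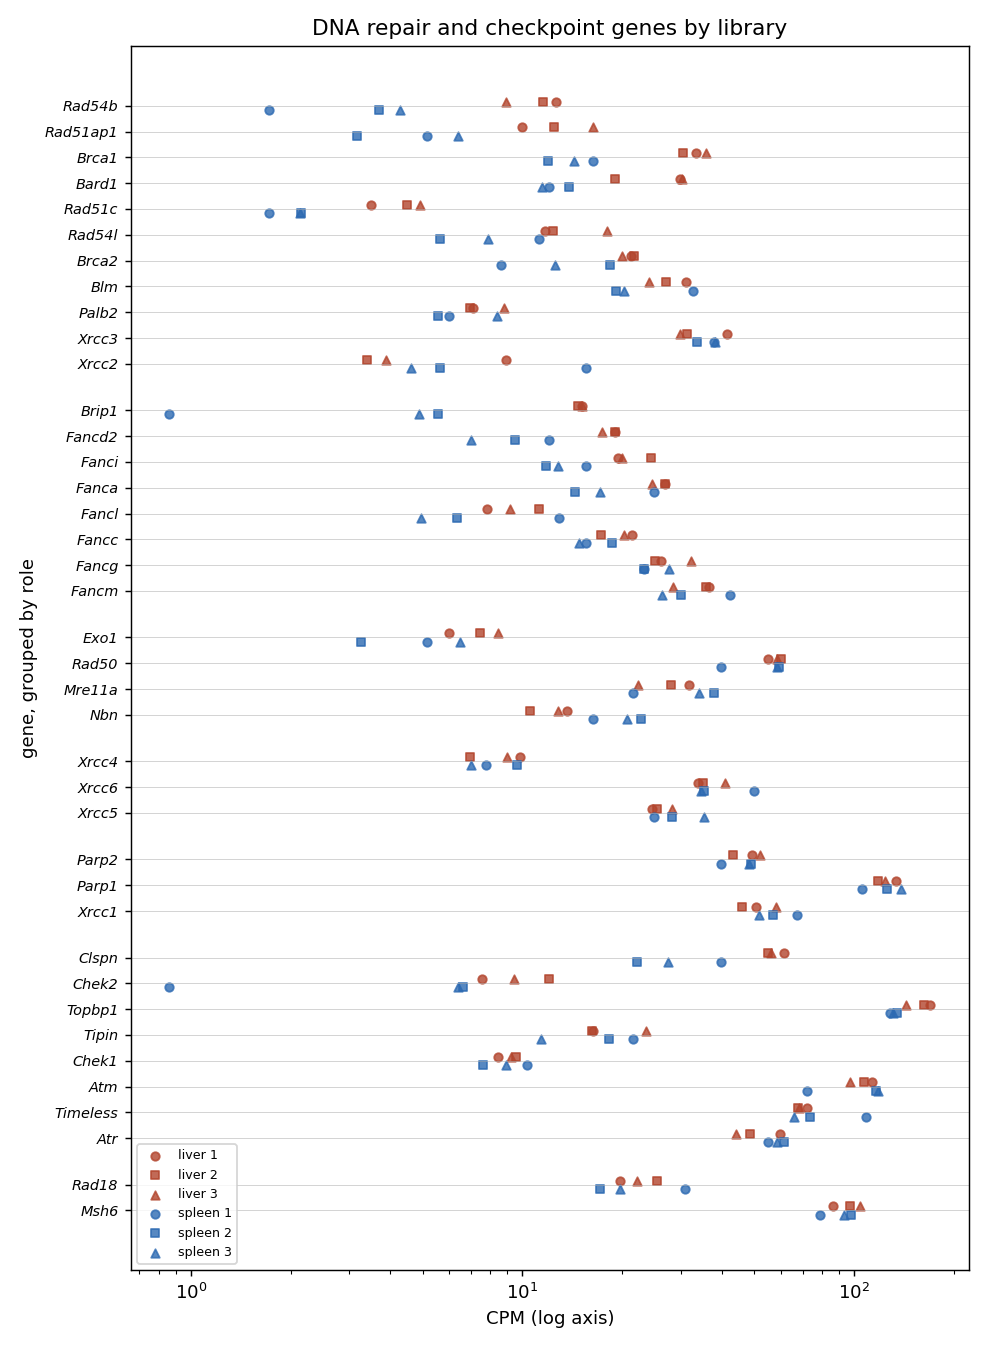
CPM of each gene in the 6 libraries on a log axis, grouped by role, with liver in red and spleen in blue. Brca1, Rad51ap1, Rad54b, Brip1, Fancd2 and Clspn show liver and spleen points apart; Parp1, Atm and Msh6 show them mixed, and spleen 1 lies far left for Brip1 and Chek2.

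In the Fanconi pathway, transcripts of the FANCD2-FANCI pair and of the helicase BRIP1 were higher in liver. Fancd2, the monoubiquitylated clamp subunit, was at 19.0, 19.1 and 17.3 CPM in liver against 12.0, 9.51 and 7.01 CPM in spleen. The liver libraries lay close together and all above spleen (2.11-fold; log2 fold change 1.07 ± 0.23 SE, edgeR adjusted p = 0.00344). At equal depth the Fancd2 call was lost (edgeR adjusted p = 0.0930). Fanci, its partner, was at 19.4, 24.5 and 20.0 CPM in liver against 15.5, 11.7 and 12.8 CPM in spleen. Spleen 1 was again the highest of its group, and the tissues did not overlap (log2 fold change 0.74 ± 0.21 SE, edgeR adjusted p = 0.0183). Fanci was not past the threshold without liver 2, spleen 2 or spleen 3 (edgeR adjusted p = 0.113, 0.135 and 0.0738) or at equal depth (edgeR adjusted p = 0.245).

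Brip1, the helicase that binds BRCA1 and is also known as FANCJ, had the largest log2 fold change of the 39 genes. It was at 15.2, 14.7 and 15.1 CPM in liver against 0.861, 5.57 and 4.87 CPM in spleen, where spleen 1 held 1 count. The ratio was 3.15-fold (log2 fold change 1.66 ± 0.29 SE, edgeR adjusted p = 0.000645), and without spleen 1 the gene stayed past the threshold, as it did under all 15 alternatives.

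In the core complex that ubiquitylates this pair, 1 of 5 genes passed. Fanca, a core scaffold, was at 26.9, 26.9 and 24.6 CPM in liver against 25.0, 14.4 and 17.2 CPM in spleen, so spleen 1 overlapped the liver libraries. It passed narrowly (log2 fold change 0.60 ± 0.20 SE, edgeR adjusted p = 0.0473) and lost the call under 9 of 15 alternatives, including every omission of a single library other than spleen 1 (edgeR adjusted p = 0.126, 0.151 and 0.0621 without liver 1, 2 and 3, and 0.327 and 0.157 without spleen 2 and 3). Fancc, Fancg, the ubiquitin ligase Fancl and the translocase Fancm had log2 fold changes of 0.25, 0.15, 0.50 and 0.13 and did not pass. All 8 genes grouped here as Fanconi had a log2 fold change above 0, with a group median of 0.55. However, Fancg and Fancm turned below 0 at equal depth, and Fancm also without spleen 3. For homologous recombination, where Brca1, Brca2, Palb2, Rad51c and Xrcc2 were counted, 9 of 11 were above 0, with a median of 0.93. Over all genes tested it was 5773 of 11716. The group counts depend on how genes were assigned.

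Summed over the 11 homologous recombination genes, the liver libraries held 211, 181 and 201 CPM and the spleen libraries 149, 123 and 130 CPM. The 8 Fanconi genes summed to 172, 174 and 167 CPM in liver against 147, 120 and 116 CPM in spleen. In both groups spleen 1 was the spleen library nearest to liver, and the tissues did not overlap. The 3 single-strand break genes overlapped, at 234, 207 and 234 CPM in liver against 213, 231 and 238 CPM in spleen.

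**Figure D3:**
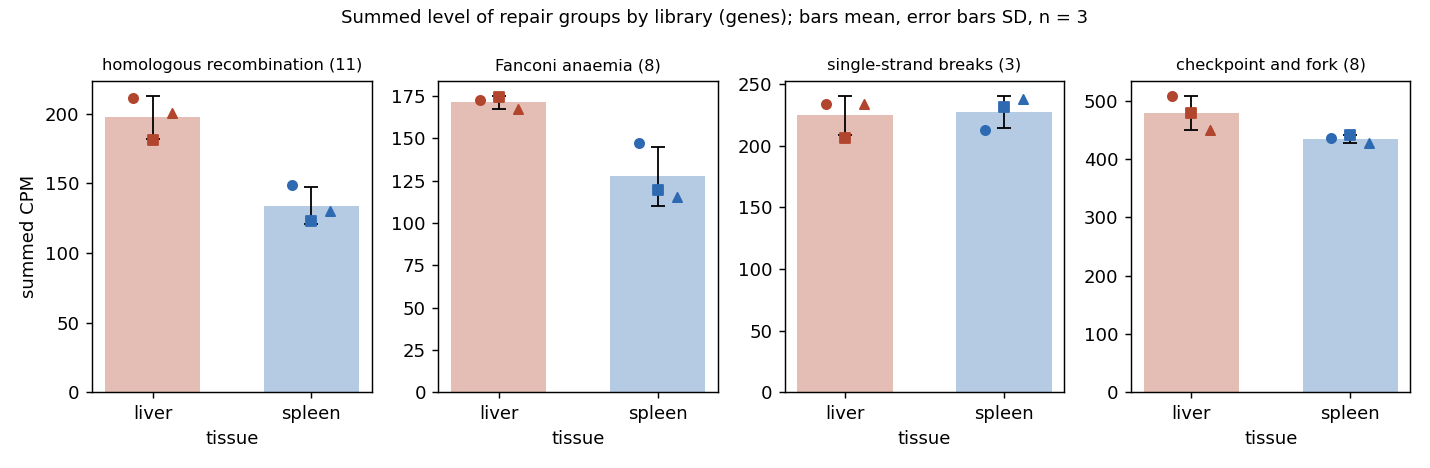
Summed CPM of 4 groups of repair genes by tissue, from 0; points are libraries, bars the mean and error bars the SD (n = 3). Liver lies above spleen for homologous recombination (181 to 211 against 123 to 149 CPM) and Fanconi genes, and the tissues overlap for single-strand break genes.

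The MRE11-RAD50-NBN complex, which finds broken ends, held the 1 gene lower in liver. Nbn, its signalling subunit, was at 13.6, 10.5 and 12.8 CPM in liver against 16.4, 22.8 and 20.6 CPM in spleen, without overlap. It was 1.69-fold higher in spleen (log2 fold change -0.75 ± 0.21 SE, edgeR adjusted p = 0.0174), and the call was lost without liver 2, spleen 2 or spleen 3 (edgeR adjusted p = 0.0993, 0.150 and 0.0644). The nuclease gene Mre11a and the ATPase gene Rad50 did not pass, at log2 fold changes of -0.29 and 0.08. Rad50 was at 55.2 to 60.1 CPM in liver and 39.6 to 59.5 CPM in spleen, spleen 1 being the lowest. Exo1, the long-range resection nuclease, had a log2 fold change of 0.57 with an interval from -0.16 to 1.30.

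End joining, which ligates broken ends without a template, showed no call among 3 genes. Xrcc5, encoding Ku80, was at 24.6, 25.5 and 28.2 CPM in liver against 25.0, 28.3 and 35.2 CPM in spleen. Its interval ran from -0.58 to 0.14. Xrcc6, encoding Ku70, was at 33.8, 35 and 40.8 CPM in liver against 49.9, 35.2 and 34.4 CPM in spleen, with spleen 1 the highest. The log2 fold change was -0.04, with an interval from -0.39 to 0.30. Xrcc4, the ligase IV cofactor, was at 0.06, with an interval from -0.53 to 0.65.

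Single-strand break repair genes were among the more abundant of the 39 and also gave no call. Parp1, the poly(ADP-ribose) polymerase that detects nicks, was at 134, 118 and 124 CPM in liver against 106, 126 and 138 CPM in spleen. The ranges overlapped, and the interval of the log2 fold change ran from -0.23 to 0.21, the narrowest bounds apart from those of Topbp1. Parp2, its relative, was at 0.04 with an interval from -0.25 to 0.33, and the scaffold Xrcc1 at -0.14 with an interval from -0.44 to 0.15. Msh6, which recognises mismatched bases, was at 86.3, 97.1 and 104 CPM in liver against 79.2, 98 and 93.2 CPM in spleen, with an interval from -0.18 to 0.30. Rad18, the ligase that directs lesion bypass, had a log2 fold change of 0.13.

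Among checkpoint and fork genes, only Clspn passed. Claspin is the adaptor through which ATR activates CHK1 at a stalled fork. Clspn was at 61.3, 54.9 and 56.1 CPM in liver against 39.6, 22.2 and 27.4 CPM in spleen, with every liver library above every spleen library. The ratio was 2.11-fold (log2 fold change 1.08 ± 0.17 SE, edgeR adjusted p = 0.000206), and the gene was past the threshold under all 15 alternatives.

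The kinase genes on either side of Claspin did not pass. Atr was at 59.8, 48.7 and 44.0 CPM in liver against 55.1, 61.4 and 58.5 CPM in spleen. The groups overlapped (log2 fold change -0.22 ± 0.14 SE, edgeR adjusted p = 0.337). Chek1 was at 8.42, 9.54 and 9.26 CPM in liver against 10.3, 7.63 and 8.89 CPM in spleen. Its log2 fold change was 0.08 with an interval from -0.47 to 0.64. The difference between Clspn and either kinase gene was not tested.

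The double-strand break branch likewise gave no call. Atm, its apical kinase, was at 113, 107 and 97.0 CPM in liver against 72.3, 117 and 118 CPM in spleen. Spleen 1 was the lowest library and the other spleen libraries the highest (log2 fold change -0.02, interval -0.30 to 0.26). Chek2, the kinase downstream of ATM, was at 7.58, 12.0 and 9.45 CPM in liver against 0.861, 6.60 and 6.41 CPM in spleen. The tissues did not overlap, but spleen 1 held 1 count and the gene did not pass (log2 fold change 0.75 ± 0.34 SE, edgeR adjusted p = 0.157).

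Topbp1, the activator of ATR, had the highest mean CPM of the 39 genes, without correction for transcript length. It was at 170, 163 and 143 CPM in liver against 128, 135 and 131 CPM in spleen. The liver libraries were all higher, by 1.20-fold, yet the gene did not pass (log2 fold change 0.26 ± 0.10 SE, edgeR adjusted p = 0.0731); it passed without liver 3 (edgeR adjusted p = 0.0171) and with limma-voom (limma adjusted p = 0.0200). Timeless and Tipin form the fork protection complex with Claspin, and neither passed. Timeless was at 108 CPM in spleen 1 against 65.9 to 73.6 CPM in the other 5 libraries. Tipin had a log2 fold change of 0.24, with an interval from -0.28 to 0.75.

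Per kilobase of the longest annotated coding transcript, the most abundant genes in liver were Parp1 (32.3 ± 2.11 CPM per kb, SD, n = 3), Topbp1 (30.4 ± 2.65), Parp2 (25.4 ± 2.41) and Msh6 (22.6 ± 2.12). Parp1 and Topbp1 lay within an SD of each other, and the steps from Topbp1 to Parp2 and from Parp2 to Msh6 were larger than the SD of either neighbour. The same 4 genes and Xrcc1 held the first 5 ranks in spleen, where Parp1 was at 31.8 ± 4.2 CPM per kb. The lowest levels in liver were those of Exo1 (0.935 ± 0.156 CPM per kb) and Rad51c (1.09 ± 0.19). By rank from the highest level, Clspn was 8 in liver and 17 in spleen, and Brca1 22 and 31. In GRCm38 annotation, 14 of the 39 genes share exon bases with a gene on the opposite strand, among them Rad54l with Lrrc41, Fanca with Zfp276, Fancd2 with Fancd2os and Fanci with Polg; without a stated strand setting their reads cannot be told apart.

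The wider repair list and the cell cycle genes give the setting. Of 98 other repair and damage response genes tested, 17 had higher levels in liver and 5 lower levels, 76 did not pass, and the list had a median log2 fold change of 0.06. H2afx, the histone variant that marks breaks, averaged 194 ± 23.2 CPM over the liver libraries and 89.3 ± 8.50 CPM over the spleen libraries (log2 fold change 1.15 ± 0.11 SE). The glycosylase gene Neil3 (1.39 ± 0.18), the replicative ligase gene Lig1 (0.78 ± 0.10) and the replication initiator gene Ticrr (1.33 ± 0.18) were also higher. Among the 5 lower in liver was the mismatch repair gene Mlh3, chosen after its values were seen, with means of 15.8 ± 1.36 CPM over the liver libraries and 26.5 ± 2.45 CPM over the spleen libraries (log2 fold change -0.76 ± 0.18 SE, edgeR adjusted p = 0.00693). Of 38 S phase and replication genes 14 were higher and 0 lower (median 0.42), with the smallest p for Rrm2, Uhrf1, Rrm1 and Mcm6. In the list of G2 phase and mitosis 34 of 35 were higher and 0 lower (median 1.47), with the smallest p for Cenpf, Kif11, Mki67 and Tpx2; Smc4 did not pass.

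**Figure D4:**
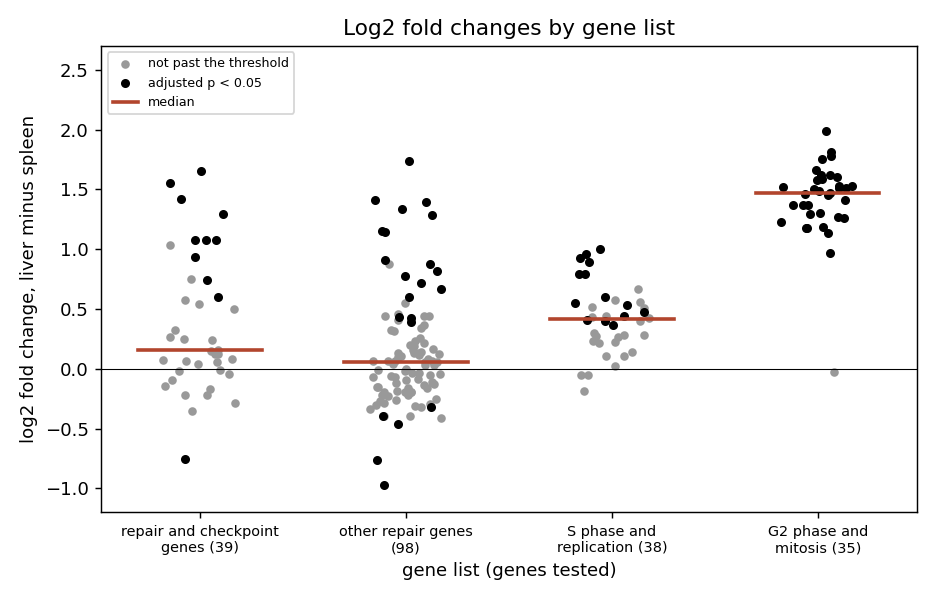
Log2 fold change, liver minus spleen, of each tested gene in 4 lists, with the list median as a line and genes past an adjusted p of 0.05 in black. The median is 0.16 for the 39 repair and checkpoint genes, 0.06 for other repair genes, 0.42 for S phase and 1.47 for mitosis genes.

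Set against these lists library by library, the 39 genes summed to 1406, 1337 and 1359 CPM in liver against 1220, 1226 and 1220 CPM in spleen. Divided by the summed level of the S phase list, this was 0.528, 0.502 and 0.462 in liver and 0.488, 0.598 and 0.583 in spleen, which overlap. Divided by the mitosis list it was 0.315, 0.290 and 0.283 in liver and 0.495, 0.544 and 0.554 in spleen, which do not. Of the 10 genes higher in liver, Brip1 (1.66), Rad54b (1.56), Rad51ap1 (1.42) and Brca1 (1.29) had log2 fold changes near the median of the mitosis list. Those of Clspn (1.08), Bard1 (1.07), Fancd2 (1.07) and Rad54l (0.93) lay between the medians of the mitosis and S phase lists. Fanci (0.74) and Fanca (0.60) also lay between them, the closest of the 10 to the S phase median. These 10 were picked for passing the threshold, whereas each median covers every tested gene of its list, called or not. Their place above the S phase median (0.42) is therefore partly set by that choice. The median of all 39 was 0.16, below it. Differences among the 10 were not tested. How far the share of dividing cells accounts for the repair genes was not tested.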

How the data were processed

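Raw read counts per gene symbol were deposited by the authors as 1 table with 1 column per library and no normalization. HISAT2 2.1, HTSeq 0.11 and the build mm9 are named in the submitters' processing notes; the annotation was not given in the sources used here, nor was the strand setting. The 5 summary rows that name no gene held 25.5% to 29.0% of each library's counts and were left out. Libraries were grouped by the tissue label and numbered in accession order, which pairs none of them.

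The test ran in edgeR 4.0.16 under R 4.3.3: filterByExpr, TMM scaling and the quasi-likelihood F test over 11716 genes, liver minus spleen; p was adjusted by Benjamini-Hochberg and 0.05 was the threshold. The standard error (SE) is that implied by the F statistic, intervals are 95% and the biological coefficient of variation was 0.129. Intervals and floors cover counting error and spread between libraries only. Libraries of 1 tissue were no duplicates (chi-square of their counts at least 4.56 per degree of freedom). Alternatives used DESeq2 1.42.0 and limma 3.58.1, other scalings and filters, counts thinned in 1 random draw and omission of each library.

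The 39 genes, their roles, the other lists and the alternatives were chosen with earlier results of these data known. Values in every library are given for genes past the threshold, for the 4 most abundant that did not pass and for 10 genes named by the rule. The 4 genes with the smallest p are named in each other list and the 2 most abundant in each marker list; further genes were picked after their values were seen. Transcript lengths and overlaps are from GENCODE M21.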

Additional observations from a re-analysis of the deposited data

How the results depend on the processing

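Across 15 alternatives, Brca1, Bard1, Rad54b, Brip1 and Clspn passed wherever tested; 6 of the other called genes lost the call under 1 or more, and 3 genes that did not pass (Brca2, Blm, Topbp1) passed under 1 or 2. With a library left out, the genes higher in liver numbered 7 to 10 of 39, those lower 0 to 1, and the median of the 39 was 0.15 to 0.25. Over all genes these omissions gave 722 to 1245 higher in liver and 486 to 989 lower. At equal depth, where 31 of the 39 and 9141 genes in all could be tested, 5 of the 31 were higher in liver, and 627 of all genes were higher and 422 lower. With limma-voom and sample quality weights 1521 of all genes were higher in liver and 1243 lower, and of the 39 genes 12 were higher and 1 lower. Upper-quartile scaling gave 954 higher and 1014 lower, against 1087 and 808. The cause of these shifts was not tested, apart from the fewer counts or libraries that thinning and omission leave.

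The direction changed for 14 genes, none of them called with all libraries and each at most 0.352 from 0 on the log2 scale. At equal depth Fancg was at -0.076, Fancm at -0.089, Parp2 at -0.0077 and Atm at 0.14. With limma-voom Xrcc4 was at -0.021, Xrcc6 at 0.0091 and Parp2 at -0.045, and Parp2 was at -0.0077 with upper-quartile scaling; with no filter Parp1 was at 0.0027. Over the fits with a library left out, the ranges were -0.080 to 0.25 for Xrcc4, -0.14 to 0.073 for Xrcc6, -0.074 to 0.084 for Parp1, -0.027 to 0.12 for Parp2, -0.15 to 0.079 for Atm, -0.0095 to 0.13 for Msh6, -0.91 to 0.049 for Xrcc2, -0.020 to 0.16 for Rad50, -0.016 to 0.43 for Palb2, -0.031 to 0.14 for Chek1, -0.055 to 0.29 for Rad18, -0.024 to 0.25 for Fancm and -0.038 to 0.39 for Tipin. No paired analysis was possible because the labels give no replicate number, animal or batch that ties a liver library to a spleen library; a blocked fit was not run.

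Spleen 1, the shallowest library, limits genes of few counts: Brip1 and Chek2 held 1 count there and Rad54b and Rad51c 2.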
